A study of Mus musculus with 2 samples.

Results

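*Lyve1*-positive macrophages outside the *Cd209*-high group were cells of the mouse sciatic nerve (SN) with at least 2 *Lyve1* UMIs and fewer than 2 UMIs in all over *Cd209b*, *Cd209d*, *Cd209f*, *Cd209g* and *Fcna*. A UMI stands for 1 captured RNA molecule, and a cell was a barcode with at least 1000 UMIs and 200 genes. Members were thus chosen by these measured counts. By this rule 448 of 3764 cells (11.9%) belonged to the class, 154 of 895 in the YFP- library and 294 of 2869 in the YFP+ library. They were set against 566 YFP- and 2101 YFP+ cells with no *Lyve1* UMI. Since the rule read *Lyve1*, the *Cd209* genes, *Fcna* and the depth of a cell, the values of these are a description of the class and not a result.

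CD64+ CD45int cells came from the SNs of 19 male Flt3-Cre LSL-YFP fl/fl mice aged 10 to 12 weeks, pooled before the sort, so that no value can be tied to an animal. All cells carry both alleles, and a cell turns YFP+ once it or a precursor has expressed *Flt3*, as haematopoietic stem cell progeny does, while YFP- cells lack that history or escaped recombination. Each condition is 1 library of single cells, without a replicate, so no p-value was computed and intervals, at 95%, cover counting error only. The libraries held 3653688 (YFP-) and 9365598 (YFP+) UMIs, of which the class had 463372 and 676035.

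LYVE1 is a receptor for hyaluronan, a sugar polymer of the extracellular matrix, and is best known from lymphatic endothelium. In many tissues it also marks resident macrophages that lie along blood vessels and carry scavenger receptors, often with low MHC class II, while macrophages that have arrived more recently from monocytes tend to carry CCR2 and high MHC class II. In peripheral nerve, macrophages share the interior of the nerve with Schwann cells, fibroblasts and vessels.

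The class was macrophage RNA by its markers. All 10 macrophage markers examined were detected in it in both libraries, and their summed level in CPM, the UMIs of a gene over all cells of a class scaled to a total of 1 M for each class, was 19324 in YFP- and 20174 in YFP+ class cells, against 19013 and 19379 CPM in cells with no *Lyve1* UMI. *Csf1r*, the receptor for the growth factors that macrophages depend on, had 943 CPM (857–1036) among YFP- and 904 CPM (834–978) among YFP+ class cells, and *Cd68*, a lysosomal protein of macrophages, had 520.1 CPM (457–590.1) and 606 CPM (549–668). Lymphatic endothelium, the other well-known *Lyve1*-expressing cell type, was all but absent, as its 6 markers gave 0 UMIs in the YFP- class cells and 1 UMI, of *Prox1*, in the YFP+ class cells.

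The label of the class names *Lyve1*, *Folr2*, *Selenop*, *F13a1* and *Stab1*. *Lyve1* (chr7:110850607-110863239, minus strand, GRCm38) had 1064 CPM (972–1162) in YFP- and 1204 CPM (1123–1289.7) in YFP+ class cells, by the rule. The other 4 were all higher in the class than in cells with no *Lyve1* UMI in both libraries, but only *Folr2* by more than 1.5-fold in both. *F13a1* (chr13:36867178-37050244, minus strand), a clotting factor subunit that cross-links fibrin, had 1219 CPM (1121–1324) against 939 CPM in YFP- and 1315 CPM (1230.0–1404) against 855 CPM in YFP+ cells, a log2 ratio of 0.38 (0.23 to 0.52) and 0.62 (0.51 to 0.73). *Selenop*, a secreted selenium carrier, differed by a log2 ratio of 0.16 (0.10 to 0.23) and 0.31 (0.26 to 0.37), and *Stab1*, a scavenger receptor, by 0.20 (0.02 to 0.37) and 0.38 (0.22 to 0.53). *Selenop* was not particular to the class, since 98.2% (YFP-) and 97.5% (YFP+) of the cells with no *Lyve1* UMI had a UMI of it too, and free RNA held it at 5718 and 4783 CPM. Free RNA also held *Stab1*, at 1196 CPM for YFP- and 704 CPM for YFP+, above the class cells of each library. *F13a1* had 869.6 and 633.6 CPM there, below the comparison cells. The part of free RNA in these differences was not tested.

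Class cells had few *Lyve1* UMIs. Exactly 2 UMIs were found in 74 YFP- and 165 YFP+ class cells, 3 UMIs in 37 and 68, and 4 or more in 43 and 61, with a maximum of 10 in each library. Just below the threshold lay 158 YFP- and 444 YFP+ cells with 1 *Lyve1* UMI, and beyond the other threshold 17 and 30 cells with at least 2 UMIs of *Lyve1* and of the *Cd209* genes and *Fcna*. Among class cells, 9 YFP- and 25 YFP+ cells had 1 UMI of the latter genes. The class held 493 of 727 *Lyve1* UMIs (67.8%) of YFP- cells and 814 of 1361 (59.8%) of YFP+ cells.

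The class made up 17.2% (14.8–19.8) of YFP- and 10.2% (9.16–11.4) of YFP+ cells. Depth differed in the same direction, with a median of 2974.5 UMIs per class cell in YFP- and 2307.5 UMIs in YFP+, against 2307 and 1824 UMIs in cells with no *Lyve1* UMI. When every cell was thinned to 1000 UMIs before the rule was applied, the class fell to 5.03% (3.69–6.67) of YFP- and 4.04% (3.35–4.83) of YFP+ cells, intervals that overlap. At full depth 36.8% of YFP- and 26.8% of YFP+ cells had a *Lyve1* UMI, and after thinning 20.9% (18.3–23.7) and 17.6% (16.2–19.0). The intervals at equal depth overlap for the class and for any *Lyve1* UMI, although YFP- remained the higher value in each. Overlap of separate intervals does not show that the shares are equal, and their difference was not tested.

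Free RNA, measured in barcodes with 10 to 100 UMIs, also held *Lyve1*, 244 CPM (213–278) for YFP- and 173 CPM (155–192) for YFP+. Cells made of nothing but that RNA would have at least 2 *Lyve1* UMIs in 13.7% of YFP- and 5.36% of YFP+ cells, while 19.1% and 11.3% of cells did. A comparison is offered by 22 cells, 3 YFP- and 19 YFP+, with more UMIs of fibroblast, Schwann, mural and endothelial markers than of macrophage markers, which should lack *Lyve1*. At a median depth of 2099 UMIs, 0 of 22 had a *Lyve1* UMI, which at a floor of 3 counts allows a share of cells with a UMI of up to 13.6%. The Clopper-Pearson interval, used for the other shares, reaches 15.4%. By library, the same floor allows up to 64.1 CPM in the 19 YFP+ cells, below the free RNA of that library. In the 3 YFP- cells it allows up to 459 CPM, which is above the YFP- free RNA, so that the YFP- cells give no comparison. The YFP+ limit is set against RNA that is all free. The count of 0 cannot tell whether these cells held a smaller share of free RNA. How many class cells owe a *Lyve1* UMI to free RNA was not tested.

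Of 2613 genes with a mean of at least 50 CPM, 8 (0.306%) were at least 1.5-fold higher in the class than in cells with no *Lyve1* UMI in both libraries, and 12 (0.459%) were at least 1.5-fold lower in both. The higher genes were *Folr2*, *Egfl7*, *Fgfr1*, *Kitl*, *Cd164*, *Higd1a*, *Ccl2* and *Cfp*, and the lower ones included *Ccr2*, *Cd9*, *Ramp1*, *Lgals3*, *Ccl3*, *Ccl4*, *Mpeg1*, *Stmn1*, *Kcnq1ot1* and AC154912.1. Another 2390 genes (91.5%) stayed within 1.5-fold in both libraries, and the median log2 ratio was 0.03 in each. Ratios were taken after adding 1 CPM, which understates those of low genes. The counts of higher and lower genes depended on the settings, with 96 and 52 after thinning before the rule, which leaves 45 YFP- class cells, 86 and 159 at a mean of at least 10 CPM and 3 and 7 at 100 CPM, and the higher genes numbered 20 with at least 3 *Lyve1* UMIs and 4 without the class cell with the most UMIs of each gene.

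**Figure D1:**
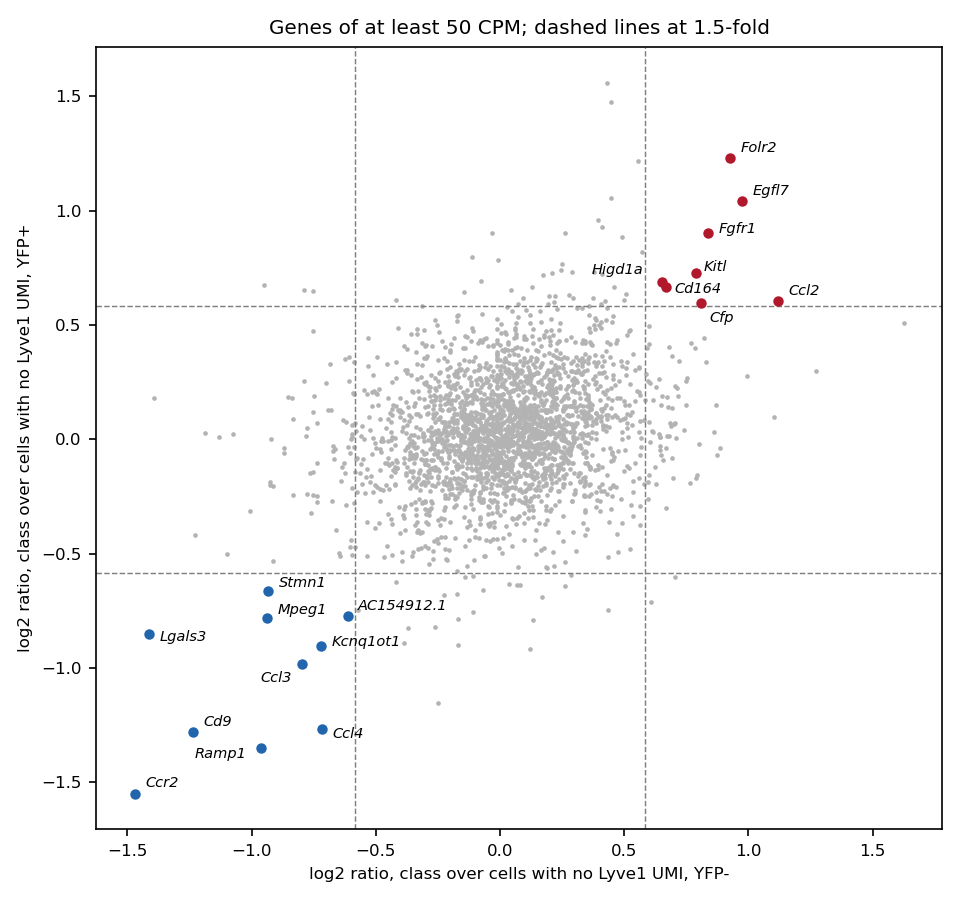
Log2 ratio of the class over cells with no *Lyve1* UMI in YFP- (x axis) and YFP+ (y axis) cells for genes of at least 50 CPM, 1 point per gene, with dashed lines at 1.5-fold. Red points are the named genes past the line upwards in both libraries and blue points those past it downwards, while the cloud of grey points centres near 0.

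*Folr2* and *Ccr2* kept their place under all 20 alternatives to the processing, *Folr2* as the higher and *Ccr2* as the lower gene. *Folr2* lies at chr7:101839988-101857194 on the minus strand and *Ccr2* at chr9:124101950-124113557 on the plus strand. The promoter of *Folr2*, the gene most clearly raised, is given from RefSeq on GRCm38.p6 as 250 bases before to 50 after the more upstream of its 2 RefSeq starts of transcription (chr7:101857141-101857440), on the strand of the gene. Capitals mark the motif TGCTGA, the core of elements bound by MAF, a transcription factor of resident macrophages.
Folr2 promoter: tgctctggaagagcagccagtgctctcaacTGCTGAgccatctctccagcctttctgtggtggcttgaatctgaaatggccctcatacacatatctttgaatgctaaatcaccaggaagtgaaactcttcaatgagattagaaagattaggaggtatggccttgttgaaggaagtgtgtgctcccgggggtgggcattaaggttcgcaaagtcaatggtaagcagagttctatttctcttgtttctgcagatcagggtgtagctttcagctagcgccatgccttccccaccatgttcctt
Both strands were searched for TGCTGA and for GAGGAA, a purine-rich core bound by PU.1, and the motifs do not overlap. The only match to these strings was TGCTGA at position -220 from the start, and other forms of either site were not searched. Since 19.5% of 32851 promoters of the same length hold TGCTGA and 28.3% hold GAGGAA, the match is a description of this window only.

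*Folr2*, which encodes a folate receptor of resident macrophages, was the gene most clearly raised in the class. It had 511 CPM (448–581) in YFP- and 515 CPM (462–572) in YFP+ class cells, against 269 CPM (242–297) and 219 CPM (205–233) in cells with no *Lyve1* UMI. Class cells of both libraries had about the same level, and the comparison cells well below it, a log2 ratio of 0.93 (0.69 to 1.17) and 1.23 (1.05 to 1.41). After thinning to 1000 UMIs, 33.8% (26.3–41.8) of YFP- and 33.0% (27.6–38.7) of YFP+ class cells had a *Folr2* UMI, against 20.1% (16.9–23.7) and 16.7% (15.1–18.3) of the comparison cells. Unthinned shares were 62.3% and 54.8% against 36.7% and 27.4%, and 0 of the 22 stromal-type cells had a *Folr2* UMI. In free RNA *Folr2* had 534 CPM (488–584) for YFP- and 401 CPM (374–429) for YFP+. That is near the class in YFP-, below it in YFP+ and above the comparison cells in each. Removal of 10% free RNA was among the 20 alternatives, and *Folr2* kept its call in all of them. Other shares of free RNA were not tested.

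The other raised genes were low. *Egfl7* (chr2:26580014-26593120, plus strand), a secreted factor best known from endothelium, had 125 CPM in YFP- and 88.8 CPM in YFP+ class cells, against 63.2 and 42.6 CPM, a log2 ratio of 0.98 (0.48 to 1.47) and 1.04 (0.60 to 1.47). *Egfl7* made up 58 of the 61 UMIs of 8 blood endothelial markers in YFP- and 60 of 64 in YFP+ class cells. Free RNA held it at 95.6 CPM for YFP- and 88.5 CPM for YFP+, above the comparison cells of each library and level with the YFP+ class cells. Removal of 10% free RNA was among the 20 alternatives, of which *Egfl7* kept its call in 18. Other shares of free RNA were not tested. *Fgfr1* (chr8:25513654-25575718, plus strand), a receptor for fibroblast growth factors, had 73.4 CPM (50.8–103) and 81.4 CPM (61.3–106), against 40.7 and 43.0 CPM. *Kitl* (chr10:100015630-100100416, plus strand), the ligand of the receptor KIT, had 73.4 CPM (50.8–103) and 79.9 CPM (60.0–104), against 42.1 and 47.8 CPM. For *Fgfr1* the log2 ratios were 0.84 (0.19 to 1.46) and 0.90 (0.45 to 1.34), and for *Kitl* 0.79 (0.14 to 1.41) and 0.73 (0.27 to 1.16). The difference of each of these genes thus rests on 34 to 60 class UMIs per library. Free RNA held *Fgfr1* at 63.8 CPM for YFP- and 51.6 CPM for YFP+, and *Kitl* at 46.2 and 54.1 CPM. These levels lay between the class and the comparison cells in each library.

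*Cd164*, a sialomucin, had a log2 ratio of 0.67 (0.15 to 1.17) in YFP- and 0.67 (0.25 to 1.07) in YFP+ cells, and *Cfp*, which encodes properdin, an activator of complement, 0.81 (0.41 to 1.20) and 0.59 (0.30 to 0.88). *Higd1a*, a mitochondrial protein of the response to low oxygen, had 0.65 (-0.00 to 1.28) and 0.69 (0.27 to 1.09). The interval of *Higd1a* reached 0 in YFP-, and *Cfp* only just passed 1.5-fold in YFP+. *Higd1a* kept its call in 15 of the 20 alternatives, *Cd164* in 16 and *Cfp* in 11, with ratios of *Cfp* down to 0.27 in both libraries.

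**Figure D2:**
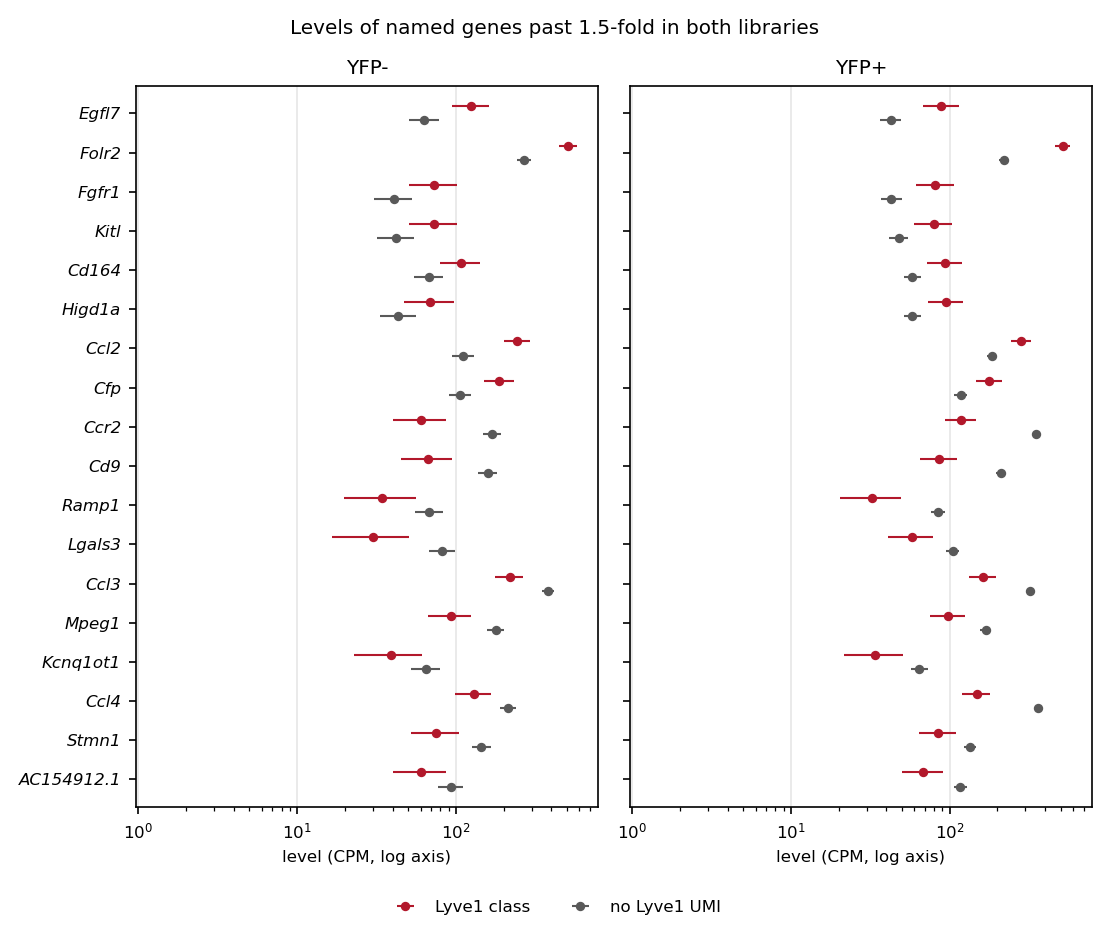
Level in CPM (log axis) of the named genes that were at least 1.5-fold higher or lower in the class in both libraries, in class cells and in cells with no *Lyve1* UMI of each library, with exact Poisson 95% intervals as bars. The intervals of *Folr2* and *Ccr2* do not overlap in either library, while in YFP- those of *Fgfr1*, *Kitl*, *Cd164*, *Higd1a*, *Ramp1*, *Kcnq1ot1* and AC154912.1 overlap.

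Among the lower genes, *Ccr2*, the receptor for CCL2 through which monocytes enter tissue, had 60.4 CPM (40.2–87.3) in YFP- and 118 CPM (93.8–147) in YFP+ class cells, against 169 CPM (148–192) and 348 CPM (331–367) in cells with no *Lyve1* UMI. YFP+ cells were above YFP- cells inside and outside the class, and the class was below in both libraries, with a log2 ratio of -1.47 (-2.08 to -0.91) and -1.55 (-1.89 to -1.23). After thinning, 6.49% (3.16–11.6) of YFP- and 8.84% (5.86–12.7) of YFP+ class cells had a *Ccr2* UMI, against 8.83% (6.63–11.5) and 22.8% (21.02–24.6) of the comparison cells. In YFP- these intervals overlap, and in YFP+ they do not. Unthinned shares were 8.44% and 15.3% against 13.4% and 33.2%, and 0 of the 22 stromal-type cells had a *Ccr2* UMI. In free RNA *Ccr2* lay above the class, with 129.7 CPM for YFP- and 229.6 CPM for YFP+. Both *Folr2* and *Ccr2* had a UMI in 6 YFP- (3.90%) and 12 YFP+ class cells (4.08%) after thinning, next to 1.41% and 2.90% of the cells with no *Lyve1* UMI, and how many of these UMIs were free RNA was not tested.

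*Lgals3*, the lectin galectin-3 of recruited and activated macrophages, had 30.2 CPM (16.5–50.7) in YFP- and 57.7 CPM (41.0–78.9) in YFP+ class cells, against 82.0 and 105 CPM. Its log2 ratio was -1.41 (-2.29 to -0.62) and -0.85 (-1.35 to -0.39). *Mpeg1*, which encodes the pore-forming protein perforin-2 of macrophages, had -0.94 (-1.43 to -0.47) and -0.78 (-1.16 to -0.42), and *Ramp1*, part of the receptor for the neuropeptide CGRP, -0.96 (-1.80 to -0.21) and -1.35 (-2.02 to -0.74). All of these were lower in class cells of either library, with intervals below 0, but the YFP+ ratio of *Mpeg1* turned to 0.16 (-0.54 to 0.79) when cells were thinned before the rule was applied. Without thinning, the share of cells with a *Lgals3* UMI was 7.14% against 6.18% in YFP- and 9.18% against 11.5% in YFP+. Class cells were the deeper ones, so that these shares are not at equal depth. *Kcnq1ot1*, a long non-coding RNA, had a log2 ratio of -0.72 (-1.51 to 0.01) and -0.90 (-1.56 to -0.30), and the gene model AC154912.1 -0.61 (-1.25 to -0.02) and -0.77 (-1.23 to -0.34). AC154912.1 kept its call in 11 of the 20 alternatives, and its YFP+ ratio turned to 0.12 (-0.73 to 0.86) after the same thinning.

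Lower genes were also compared without the stromal-type cells, which were all among the comparison cells. *Cd9*, a tetraspanin, had 66.9 and 85.8 CPM in the class, against 159 and 209.7 CPM, and its log2 ratio of -1.24 (-1.82 to -0.70) and -1.28 (-1.68 to -0.90) became -0.70 and -1.01 without these 22 cells, which held 227 of its UMIs. *Stmn1*, a regulator of microtubules that dividing cells express strongly, had -0.93 (-1.49 to -0.42) and -0.66 (-1.08 to -0.27), and -0.87 and -0.60 without them. *Stmn1* kept its call in 14 of the 20 alternatives, with ratios up to -0.24 and -0.09. Without thinning, 9.09% of YFP- and 12.9% of YFP+ class cells had a UMI of *Stmn1*, against 12.0% and 10.9% of the shallower comparison cells. For *Ccr2* the ratio barely moved as well, to -1.48 and -1.57.

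**Figure D3:**
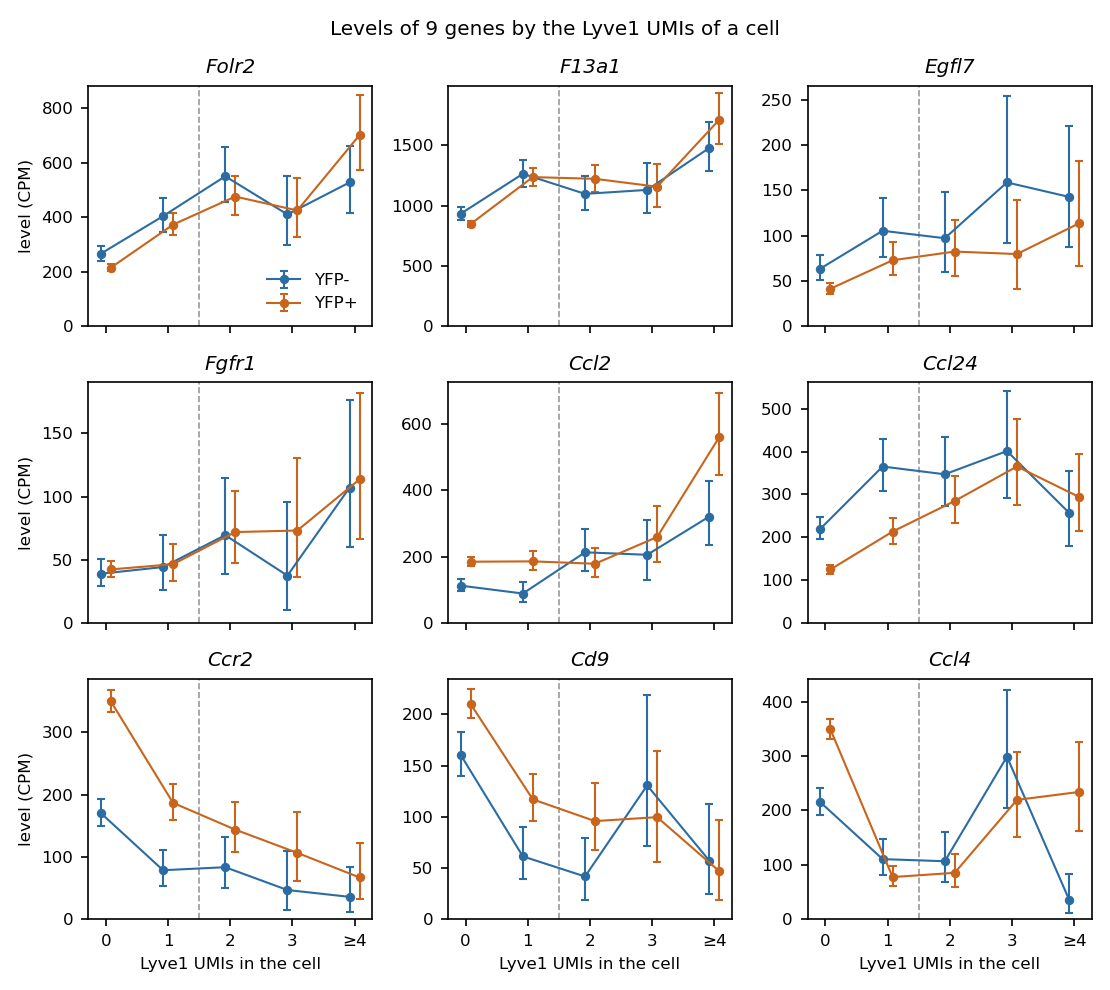
Level in CPM of 9 genes in cells with 0, 1, 2, 3 and 4 or more *Lyve1* UMIs (x axis) and fewer than 2 UMIs of the *Cd209* genes and *Fcna*, with 1 line per library, exact Poisson 95% intervals as bars and a dashed line at the threshold of the class. *Ccr2* goes from 170.0 to 35.7 CPM in YFP- and from 350 to 66.8 CPM in YFP+ between the first and the last step, and *F13a1* from 932 to 1477 CPM and from 847 to 1711 CPM.

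Cells were also ordered by their *Lyve1* count, to see whether levels went on changing inside the class. Depth rose along the same steps, from a median of 2317 to 3281 UMIs in YFP- and from 1819 to 2473 UMIs in YFP+ cells, and these levels were not thinned. *Folr2* had 267, 404, 551, 411 and 528 CPM in YFP- cells with 0, 1, 2, 3 and 4 or more *Lyve1* UMIs, and 215, 373, 476, 425 and 702 CPM in YFP+ cells. Most of the step lay between 0 and 2 UMIs, and cells with 1 *Lyve1* UMI, which the rule leaves out, stood between the class and the comparison cells. *Ccr2* had 170.0, 78.4, 83.3, 46.7 and 35.7 CPM in YFP- and 350, 187, 144, 106 and 66.8 CPM in YFP+ cells. It was lowest in the cells with the most *Lyve1* UMIs in both libraries, where 5 YFP- and 10 YFP+ UMIs were left. *Ccl2* had 112, 88.2, 213, 205 and 321 CPM over the same steps in YFP- and 184, 185, 178, 259 and 561 CPM in YFP+ cells. In YFP+ it was thus no higher in the 165 class cells with 2 *Lyve1* UMIs than in cells with none, while the 61 cells with 4 or more stood highest.

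Scavenger and perivascular macrophage genes tended to be higher in the class. Of 24 genes, 20 had a mean of at least 20 CPM, and 2 of these (*Folr2* and *Timd4*) passed 1.5-fold upwards in both libraries, while 15 were higher and 0 lower in both by any amount. Among all 5467 genes of that level, 37 (0.677%) passed 1.5-fold upwards and 62 (1.13%) downwards in both libraries, 30.4% were higher and 24.8% lower in both by any amount, and the median log2 ratio was 0.02 in YFP- and 0.03 in YFP+. The median log2 ratio of the 20 genes was 0.22 in YFP- and 0.47 in YFP+ cells. *Pf4*, a chemokine abundant in resident macrophages, had 5807 CPM (5590.1–6031) and 5078 CPM (4909.7–5251), against 4249 and 3561 CPM, a log2 ratio of 0.45 (0.38 to 0.52) and 0.51 (0.46 to 0.57). *Mrc1*, the mannose receptor CD206, had 0.24 (0.09 to 0.39) and 0.43 (0.31 to 0.55), and *Gas6*, a bridge between apoptotic cells and their receptors, 0.41 (0.21 to 0.60) and 0.72 (0.56 to 0.88). *Cd163*, the receptor for haemoglobin bound to haptoglobin, had -0.01 (-0.17 to 0.14) and 0.25 (0.14 to 0.36), and *Marco* and *Cd5l* had 0 UMIs in the class. *Timd4*, a receptor for phosphatidylserine on resident macrophages, rested on 21 and 27 class UMIs, at 45.3 and 39.9 CPM against 15.2 and 19.1 CPM, a log2 ratio of 1.51 (0.60 to 2.41) and 1.02 (0.36 to 1.65). Free RNA held *Timd4* at 42.9 CPM for YFP- and 24.1 CPM for YFP+, above the comparison cells of each library.

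Summed per cell after thinning, the scavenger genes gave a median of 21 UMIs in YFP- and 20.5 UMIs in YFP+ class cells, against 18 and 15 UMIs in cells with no *Lyve1* UMI. The class and the comparison cells overlapped widely, since 25% of class cells had 18 UMIs or fewer in YFP- and 16.25 or fewer in YFP+. Cells with 1 *Lyve1* UMI had a median of 20 UMIs in YFP- and 19 UMIs in YFP+. In the *Lyve1*-positive *Cd209*-high cells the median was 26 and 28 UMIs. The higher level was thus not particular to the class.

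Chemokine ligands were raised and lowered side by side. Of 12 ligands with at least 20 CPM, *Ccl2* and *Ccl8* were at least 1.5-fold higher and *Ccl3* and *Ccl4* at least 1.5-fold lower in both libraries, and 9 were higher and 3 lower in both by any amount, with medians of 0.45 and 0.56. *Ccl2* (chr11:82035571-82037453, plus strand), which draws CCR2+ monocytes, had 244 CPM (201–293) in YFP- and 281 CPM (243–324) in YFP+ class cells, against 112 and 184 CPM. *Ccl12*, a close relative that also acts on CCR2, had 721 CPM (646–802) and 744 CPM (680.4–812), against 485 and 421 CPM. *Ccl24*, a chemokine for eosinophils, had 332 CPM (282–389) and 305 CPM (265–349), against 226 and 130.3 CPM. The log2 ratios of these genes were 1.12 (0.76 to 1.48) and 0.61 (0.37 to 0.84) for *Ccl2*, 0.57 (0.38 to 0.76) and 0.82 (0.68 to 0.96) for *Ccl12*, and 0.56 (0.27 to 0.84) and 1.22 (0.98 to 1.45) for *Ccl24*. Free RNA held *Ccl2* at 192 CPM for YFP- and 244 CPM for YFP+, *Ccl12* at 651 and 616 CPM, and *Ccl24* at 342 and 206 CPM. Each was above the comparison cells of its library, and *Ccl24* was level with the class in YFP-. The part of free RNA in these differences was not tested. After thinning, 9.86% of YFP+ class cells had a *Ccl2* UMI, next to 9.19% of the comparison cells, and without the class cell with the most *Ccl2* UMIs the YFP+ ratio was 0.39. *Ccl8* rested on 20 class UMIs in YFP-, of which 12 sat in 1 cell, and on 11 in YFP+. Its log2 ratio of 1.05 in YFP- became -0.21 (-1.39 to 0.98) without that cell, -0.39 (-2.21 to 1.13) without cells holding 3 or more UMIs of other cell types, and -1.23 (-3.50 to 0.63) with at least 3 *Lyve1* UMIs, where 2 class UMIs were left. *Ccl2*, *Ccl7*, *Ccl8* and *Ccl12* are related genes side by side on chromosome 11, and whether reads were split between them was not tested.

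*Ccl3* and *Ccl4*, chemokines that are made early on activation, had 218 and 129 CPM in YFP- and 161 and 148 CPM in YFP+ class cells. Both were lower there than in cells with no *Lyve1* UMI, with log2 ratios of -0.80 (-1.12 to -0.49) and -0.98 (-1.27 to -0.70) for *Ccl3* and -0.72 (-1.14 to -0.31) and -1.27 (-1.57 to -0.98) for *Ccl4*. Without thinning, the share of cells with a *Ccl3* UMI was 20.1% against 19.3% in YFP- and 17.0% against 20.8% in YFP+. For *Ccl4* it was 8.44% against 8.30% and 10.2% against 11.2%. Class cells were the deeper ones, so that these shares are not at equal depth. *Ccl4* did not fall steadily with the *Lyve1* count, since YFP- cells with 3 *Lyve1* UMIs had 299 CPM (204–422), next to 215 CPM in cells with none. *Cxcl2*, a chemokine for neutrophils, had 729 CPM (654–811) in YFP- and 632 CPM (573–694) in YFP+ class cells, against 236 and 443 CPM, but a few cells made up the sum. The top 10% of class cells held 100% of its UMIs in YFP- and 96.5% in YFP+, and 132 of the 338 YFP- UMIs sat in 1 cell. For *Ccl2* the same share was 80.5% and 84.7%, and for *Folr2* 36.7% and 39.1%, so that *Folr2* was spread over the class and these chemokines were not. Genes of the response to tissue dissociation, which also raises chemokines, had a median log2 ratio of 0.07 and 0.22 over 15 genes, with none past 1.5-fold in both libraries, and their part in the result was not tested.

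MHC class II genes were lower in the class, by a small amount. All 7 genes with at least 20 CPM were lower in both libraries, with a median log2 ratio of -0.29 in YFP- and -0.33 in YFP+, and 1 (*Ciita*) passed 1.5-fold in both. *Cd74*, the invariant chain, had 19345 CPM (18947–19749.8) in YFP- and 25580.0 CPM (25200.2–25964) in YFP+ class cells, against 23552 and 31631 CPM. *H2-Eb1*, a chain of the presenting complex, had 4810.4 CPM (4613–5014) and 6060.3 CPM (5876–6249), against 6364 and 8038 CPM. The difference between the libraries was as large, since *Cd74* was higher in YFP+ class cells than in YFP- cells with no *Lyve1* UMI. *Ciita*, the activator of the whole group, rested on 7 and 13 class UMIs, with a log2 ratio of -1.09 (-2.36 to 0.01) and -0.99 (-1.87 to -0.21). Per thinned cell the group summed to a median of 34 UMIs in YFP- and 47 UMIs in YFP+ class cells, against 42 and 57 UMIs, with a range in the class from 1 to 128 in each library. Cells with 1 *Lyve1* UMI, which lie outside the class, had a median of 38.5 UMIs in YFP- and 45 UMIs in YFP+. The lower level was thus not particular to the class.

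Of 8 monocyte and recruited macrophage genes with at least 20 CPM, 7 were lower and 1 (*S100a10*) higher in both libraries, with medians of -0.19 and -0.44 and with *Ccr2* and *Lgals3* past 1.5-fold in both. *S100a6*, a calcium-binding protein, had 127 CPM (96.9–164) in YFP- and 225 CPM (191–264) in YFP+ class cells, against 167 and 418 CPM, a log2 ratio of -0.39 (-0.82 to 0.03) and -0.89 (-1.14 to -0.65). *Plac8* and *Ly6c2*, genes of blood monocytes, had 0 UMIs in the class, which allows up to 6.47 CPM in YFP- and 4.44 CPM in YFP+.

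Homeostatic microglia genes had medians of -0.20 and -0.24 over 10 genes, and *Sparc*, a matrix protein, was past 1.5-fold downwards in both libraries. *Trem2*, a lipid receptor of microglia and macrophages, had 261 CPM (217–312) in YFP- and 303 CPM (263–348) in YFP+ class cells, against 342 and 386 CPM. *Cx3cr1*, the fractalkine receptor, had log2 ratios of -0.22 (-0.53 to 0.08) and -0.68 (-0.92 to -0.44). The values of *Sparc*, -1.72 and -0.73, turned to -0.41 and 0.47 without the stromal-type cells. Among 11 microglial activation genes none passed 1.5-fold in both, and *Axl*, a receptor for GAS6, had -0.65 (-1.13 to -0.19) and -0.50 (-0.88 to -0.14). Of 10 genes that the study links to nerve macrophages, *Maoa* was past 1.5-fold upwards and *Ms4a4c* downwards, on 20 and 23 and on 4 and 16 class UMIs.

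Other genes of the hyaluronan system were mostly low, apart from *Stab1*, which was raised as given above. Besides *Lyve1*, only *Stab1* and *Cd44* had at least 20 CPM, and *Cd44*, the most widespread hyaluronan receptor, had 38.8 CPM (23.0–61.4) in YFP- and 48.8 CPM (33.6–68.6) in YFP+ class cells, against 36.3 and 44.7 CPM. *Stab2*, the endocytic hyaluronan receptor of liver endothelium, had 0 UMIs. The 8 enzymes of hyaluronan synthesis and breakdown that could be matched summed to 11 UMIs in YFP- and 20 UMIs in YFP+ class cells, led by *Hyal2*, and none reached 20 CPM.

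In several other groups few or no genes passed 1.5-fold. No gene of 15 transcription factors, 11 lipid handling genes or 4 growth factors passed 1.5-fold in both libraries. *Maf*, a factor of resident macrophages, had 1534 CPM (1424–1651) in YFP- and 1519 CPM (1428–1615) in YFP+ class cells, against 1334 and 1127 CPM. Among 8 complement genes *Cfp* alone passed, and *C1qa*, a subunit of the first component, was level at -0.02 (-0.08 to 0.04) and 0.01 (-0.03 to 0.06). Of 11 iron and heme genes 1 passed, *Slc40a1*, the iron exporter ferroportin, with 34.5 and 28.1 CPM in the class against 14.5 and 10.5 CPM and a log2 ratio of 1.19 and 1.34. A mixed list joined alternative activation genes with genes of a macrophage cluster that the study drew from these cells, so that it is not independent of them. Of its 10 genes none passed 1.5-fold in both libraries, while 7 were higher and 2 lower in both by any amount, with medians of 0.26 and 0.68, next to 0.02 and 0.03 over all genes of that level. *Retnla* was among the lower ones, at -0.26 and -0.44.

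**Figure D4:**
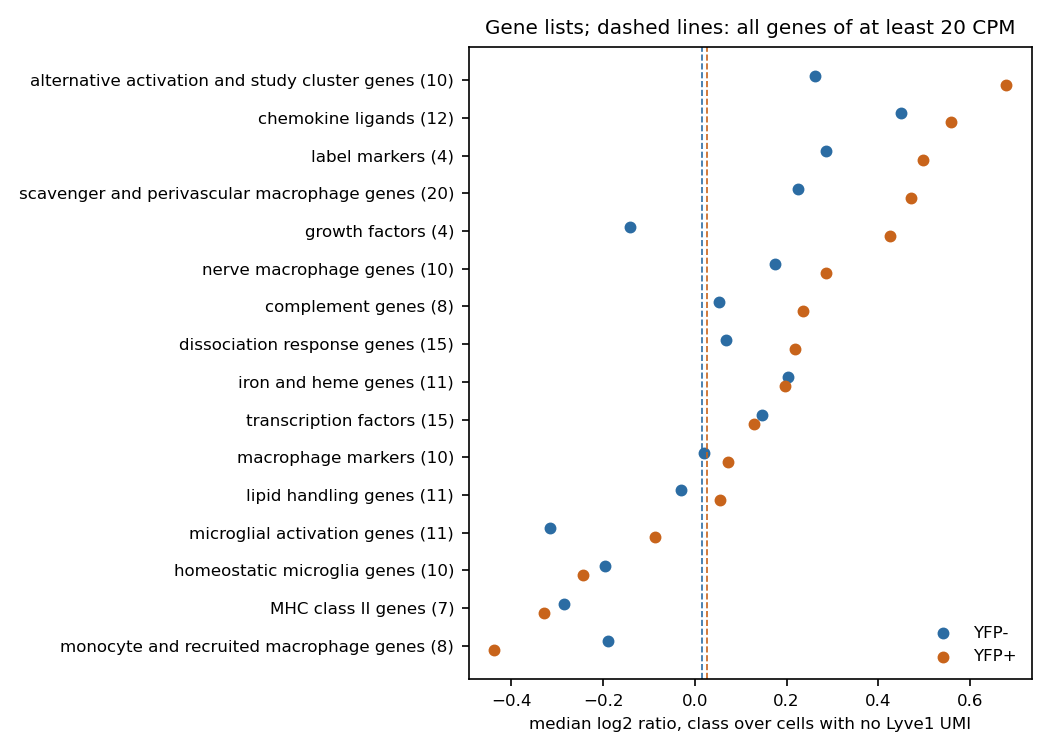
Median log2 ratio of the class over cells with no *Lyve1* UMI for each gene list (rows) in YFP- and YFP+ cells, over the list's genes of at least 20 CPM, with the number of those genes in parentheses and dashed lines at the median over all genes of that level. Scavenger genes and chemokines lie to the right and MHC class II and monocyte genes to the left in both libraries.

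Markers of other cell types were summed as well. Blood endothelial markers, mostly *Egfl7*, were higher in the class. They gave 132 CPM in YFP- and 94.7 CPM in YFP+ class cells, against 77.0 and 51.2 CPM in cells with no *Lyve1* UMI. Fibroblast markers summed to 17.3 CPM in YFP- and 19.2 CPM in YFP+ class cells, against 23.2 and 125 CPM in cells with no *Lyve1* UMI, and mural cell markers to 4.32 and 5.92 CPM, against 7.26 and 204 CPM. Schwann cell markers summed to 276 and 380 CPM, against 684 and 550 CPM, with *Pmp22*, which other cells express as well, as the most abundant and *Sox10* at 0. B cell markers gave 360 and 380 CPM, of *Ighm* above all, with *Cd79a* and *Ms4a1* at 0. T cell markers had 2 and 1 UMIs, neutrophil markers 6 and 7, all of *Csf3r*, and mast cell markers 0. Of dendritic cell marker UMIs, *Cd209a* held 23 of 31 and 51 of 54. At least 3 UMIs of such lists together were found in 42.9% of YFP- and 30.3% of YFP+ class cells, against 30.4% and 22.9% of the shallower comparison cells, and their part in the results was not tested beyond the alternatives given with them.

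The class was next set against its nearest neighbours, the 47 cells that passed the *Lyve1* threshold but had at least 2 UMIs of the *Cd209* genes and *Fcna*. *Retnla*, a secreted protein of alternatively activated macrophages, had 412 CPM (356–475) in YFP- and 720.4 CPM (658–787) in YFP+ class cells, against 5398 CPM (4753–6105) and 10243 CPM (9529.7–10995) in these neighbours. *Ly6e*, a membrane protein induced by interferon, had 127 CPM (96.9–164) and 87.3 CPM (66.4–113) in the class, against 1024 and 1218 CPM, and *Ednrb*, an endothelin receptor, 64.7 and 69.5 CPM, against 597 and 402 CPM. The class was lower in each of these by several fold, the log2 ratio of the neighbours over the class being 3.71 (3.43 to 3.99) and 3.83 (3.66 to 3.99) for *Retnla*. *Folr2* also stood higher in the neighbours, with 725 CPM (502–1014) for YFP- and 897 CPM (695–1139) for YFP+.

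Other genes were higher in the class than in these neighbours. *Ccl12* had 171 CPM (73.7–336) in YFP- and 187 CPM (102–315) in YFP+ neighbours, a log2 ratio of -2.07 (-3.28 to -1.08) and -1.98 (-2.86 to -1.23) over the class. *Cd74* had 10667 and 16603 CPM there, and the MHC class II sum per thinned cell had a median of 6 UMIs in YFP- and 28 UMIs in YFP+ neighbours, below the 34 and 47 of the class. *Cd52*, a small surface glycoprotein of leukocytes, had 762 CPM (684–846) and 840.2 CPM (773–912) in the class, against 171 and 348 CPM. With 17 and 30 cells, the neighbours gave no value for genes below about 64.0 CPM in YFP- and 40.2 CPM in YFP+, the levels of 3 counts.

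**Figure D5:**
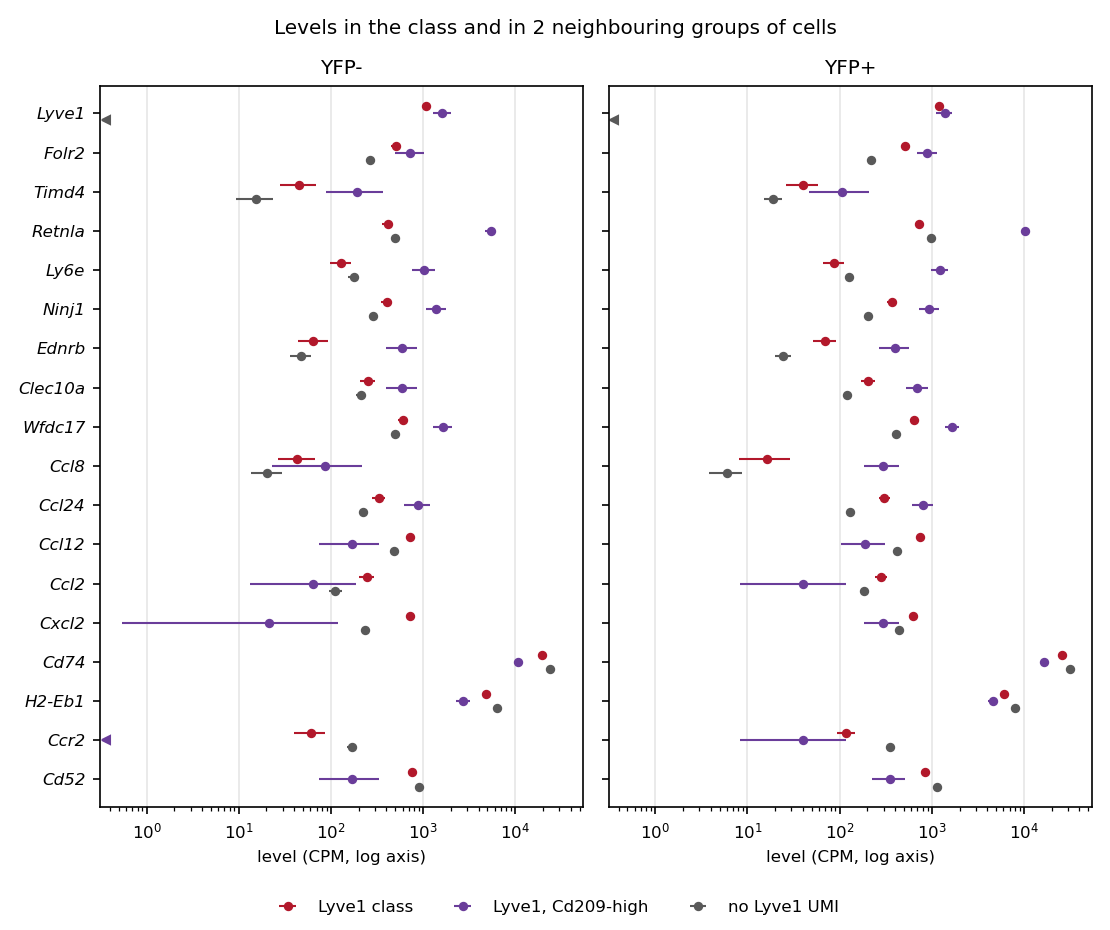
Level in CPM (log axis) of genes in class cells, in cells with no *Lyve1* UMI and in *Lyve1*-positive cells with at least 2 UMIs of the *Cd209* genes and *Fcna*, for each library, with exact Poisson 95% intervals as bars and triangles for 0 UMIs. *Retnla*, *Ly6e* and *Ednrb* are highest in the last group in both libraries, and *Ccl12* and *Cd74* are lower there than in the class.

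Across single cells thinned to 1000 UMIs, the genes whose counts went most with those of *Lyve1* were *Pf4*, *F13a1*, *Folr2*, *Ccl6* and *Ednrb*, with a mean Spearman coefficient over both libraries of 0.169, 0.157, 0.136, 0.127 and 0.120, followed by *Ccl24* (0.112), *Maf* (0.102), *Selenop* (0.0978), *Ninj1* (0.0954) and *Fcgrt* (0.0903). The coefficients are low, cells of a library share its free RNA, and the values are given as a description over 895 YFP- and 2869 YFP+ cells. These are all cells, with the 47 *Lyve1*-positive *Cd209*-high cells among them, in which *Ednrb* stood several fold above the class. How far those cells set the order was not tested.

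Last, YFP+ class cells were compared with YFP- class cells, which sets 1 library against the other. Of 2613 genes, 121 (4.63%) were at least 1.5-fold higher in YFP+ and 203 (7.77%) in YFP- class cells. Among cells with no *Lyve1* UMI the numbers were 25 and 164, and 8 and 135 genes were past the line in both kinds of cells. Of the genes higher in YFP- class cells, most were thus also higher in YFP- cells with no *Lyve1* UMI. *Ccr2*, with 118 CPM in YFP+ and 60.4 CPM in YFP- class cells, had a YFP+ over YFP- log2 ratio of 0.96 (0.33 to 1.62), next to 1.04 (0.84 to 1.24) in cells with no *Lyve1* UMI. *S100a4*, a calcium-binding protein of motile cells, had 111 and 41.0 CPM, a log2 ratio of 1.41 (0.69 to 2.20), and *S100a6* 0.82 (0.38 to 1.27). Of the 8 monocyte and recruited macrophage genes, 4 passed 1.5-fold in this direction. Their median log2 ratio was 0.64 in the class and 0.44 in cells with no *Lyve1* UMI, so that the direction was not particular to the class. These 8 genes were taken at 20 CPM, while the 4.63% of all genes is at 50 CPM.

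Of the 4 label genes besides *Lyve1*, 0 passed 1.5-fold by YFP within the class. Their median log2 ratio was -0.05, where cells with no *Lyve1* UMI had -0.28, but members went both ways. *Stab1* had 842, 803 and 756 CPM in YFP- cells with 2, 3 and 4 or more *Lyve1* UMIs. In YFP+ cells it had 639, 631 and 608 CPM, while *F13a1* was higher in YFP+ at each of these steps. *Folr2* had 0.01 (-0.23 to 0.25). *Retnla* was higher in YFP+ class cells by level, at 0.80 (0.56 to 1.05), but not by share. Without thinning, 24.0% of YFP- and 17.3% of YFP+ class cells had a *Retnla* UMI, and a single YFP+ class cell held 105 UMIs. Free RNA held *Retnla* at 1504 CPM for YFP- and 1725 CPM for YFP+, above the class in each library. MHC class II genes had a median of 0.33, as against 0.34 outside the class. *Ccl7*, a chemokine for monocytes, was higher in YFP+ class cells, with 179 CPM (149–214) against 88.5 CPM (63.5–120.0). *Ms4a4a*, a membrane protein of resident macrophages, had 39.9 CPM in YFP+ and 92.8 CPM in YFP- class cells, a log2 ratio of -1.20 (-1.93 to -0.48). Origin and library cannot be told apart in these comparisons.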

How the data were processed

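For each barcode and gene, the authors deposited raw counts of UMIs, from 10× Chromium Single Cell v2 libraries aligned to GRCm38. Cell Ranger 3.0.2 and Seurat 2.2.0 stand in the submitters' processing notes, and the annotation release is not given in the sources used here. No filter on cells had been applied and doublets were kept. Of 54838 gene identifiers, 99.8% were found in GENCODE M21, which gave the positions. The software was Python 3.11.15 with pandas 2.3.3, scipy 1.17.1, numpy 2.4.6 and matplotlib 3.10.9.

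Members and gene lists were chosen with earlier results of these data known. UMIs were summed per library and class and scaled to CPM, with exact Poisson 95% intervals. Log2 ratios used a pseudocount of 1 CPM and exact conditional binomial intervals, and shares used Clopper-Pearson intervals. The floor was 3 counts. Cells were thinned to 1000 UMIs with seed 20. Genes named were those past 1.5-fold in both libraries at a mean of at least 50 CPM, and members of 29 lists at 20 CPM. Certain genes are not reported here. The computation was tested on simulated data. Cell barcodes found in both libraries numbered 5, with 0 in the class of both.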

Additional observations from a re-analysis of the deposited data

Results flagged for a closer look

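Some genes differed between class cells and cells with no *Lyve1* UMI in opposite directions in the YFP- and YFP+ libraries, with intervals of counting error that exclude 0 in each, and the difference between the libraries was not tested. *Apoe*, the lipid carrier, had a log2 ratio of -0.0391 in YFP- and 0.32 in YFP+. *Fth1*, the heavy chain of ferritin, had 0.13 and -0.0590. *Hspa1a*, a heat shock protein, had 0.19 and -0.35. Barcodes of 10 to 100 UMIs, which are free RNA outside the cells compared, held *Lyve1*, 244.1 CPM for YFP- and 173.0 CPM for YFP+.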

How the results depend on the processing

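Over 20 alternatives, *Folr2* and *Ccr2* stayed past 1.5-fold in both libraries in all 20, *Fgfr1*, *Kitl*, *Cd9*, *Lgals3* and *Ccl3* in 19, *Egfl7* and *Ramp1* in 18, *Mpeg1* and *Ccl4* in 17, *Cd164* and *Kcnq1ot1* in 16, *Higd1a* in 15, *Ccl2* and *Stmn1* in 14, and *Cfp* and AC154912.1 in 11. Of 6429 recomputed ratios of 161 genes, 333 moved beyond their interval and 8 reversed, each of the 8 with a counting interval that holds 0. Another 11, *Maoa*, *Ccl8* and *Stmn1* in YFP- after thinning among them, had no level above 0 in a group and were given no value.

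The share of cells in the class was 7.92% in YFP+ at 500 UMIs per cell, 20.8% (YFP-) and 13.9% (YFP+) at 2000 UMIs, 34.5% and 25.2% with at least 1 *Lyve1* UMI, 8.94% and 4.50% with at least 3, 5.03% and 4.04% after thinning before the rule, and 14.8% in YFP- without cells holding 3 or more UMIs of other cell types. The number of higher genes was 5 with at least 1 *Lyve1* UMI, 20 with at least 3, 96 after thinning, 13 without the 5% of cells with the most UMIs, 86 at a mean CPM of 10 and 3 at 100. The number of lower genes was 7 with at least 1 *Lyve1* UMI, 52 after thinning, 159 at a mean CPM of 10 and 7 at 100. Thinning leaves fewer UMIs, and a lower CPM minimum adds genes.

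*Ccl8* reversed in YFP- to -1.23 with at least 3 *Lyve1* UMIs and -0.39 without cells of other types. *Mpeg1* reversed in YFP+ to 0.16 and AC154912.1 in YFP+ to 0.12 after thinning, and *Sparc* to 0.0259 in YFP- and 0.49 in YFP+ without cells of other types. A pair of alternatives was chosen after seeing the data. Without the class cell with the most UMIs of a gene, 4 genes were higher, and *Ccl8* reversed in YFP- to -0.21. Without the stromal-type cells, 7 were higher and 11 lower, and *Sparc* reversed in YFP+ to 0.47. The causes were not tested. No paired analysis was possible because each condition is 1 library.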
